A study of Papio hamadryas with 160 samples.

Results

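MicroRNAs (miRNAs) of the dorsal anterior cingulate cortex (dACC) were compared with those of the posterior cingulate cortex (PCC) within 4 baboons (Papio hamadryas). The 8 libraries, 4 of each region, were chosen by their region and animal labels and are 8 of the 76 small RNA libraries of the series for which values were used. The animals, A1 to A4 of Group A, were adult females that had taken part in other studies earlier in life. All were sedated with ketamine, anesthetized with isoflurane and euthanized with pentobarbital. Each brain was kept cold and cut into coronal blocks, and the dACC was taken from just above the genu of the corpus callosum and the PCC from just above its splenium. No library was a sorted cell type. Each is bulk tissue, and fewer cells of a type and less of a miRNA per cell cannot be told apart. For a comparison of a frontal with a more posterior cortical area in other animals, the dorsolateral prefrontal cortex (dlPFC) and posterior parietal cortex (PPC) of the 6 animals of Group B were used, mostly older males euthanized by exsanguination under anesthesia, whose tissue was dissected fresh.

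miRNAs are short RNAs that guide the silencing complex to messenger RNAs through the bases of their seed and so lower the stability and translation of their targets. The cingulate gyrus changes along its length. The anterior part belongs to agranular limbic cortex, is linked with the amygdala, orbitofrontal and motor areas, and is known for its part in pain, effort and the control of behavior. The posterior part has a granular layer IV, is linked with parietal cortex, the hippocampal region and the thalamus, and is known for its part in memory and spatial orientation. miRNAs are told apart here by the name of their mature arm as the files give it, with the human prefix left out. The files give no positions, and the loci named are those of the human genes, as background.

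The deposited values are RPM, read counts that the authors scaled to a common library total, and each library lists the same miRNAs. The totals recovered from the RPM values were 2217264 to 5752841 reads (median 2787948), the PCC library of A4 being the deepest. The listed miRNAs held 60.9% to 64.4% of these totals, every miRNA had at least 5 reads in each of the 8 libraries, and at most 4 miRNAs of a library had fewer than 10 reads. A count of 0 would have allowed up to 0.521 to 1.35 RPM (3 reads), for counting error only. The most abundant miRNA was miR-181a-5p, with 8.87% of the reads on average. Markers of neurons were high in every library: miR-9-5p stood at 30694 to 37418 RPM, miR-128-3p at 11636 to 24130 RPM and miR-124-3p at 4612 to 8126 RPM. Both regions therefore carried the miRNAs of mature brain, and none of the lists below holds a miRNA that marks either cingulate region by definition.

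In pattern the regions were close. Spearman's rank correlation across the listed miRNAs, which are not independent replicates, was 0.969 to 0.984 between the dACC and PCC of an animal (median 0.983, 4 pairs). Between animals it was 0.963 to 0.992 within the dACC (median 0.973, 6 pairs) and 0.960 to 0.988 within the PCC (median 0.977, 6 pairs). The ranges overlapped. Some libraries stood apart in single miRNAs. The dACC library of A2 held more of the oligodendrocyte and miR-181 miRNAs than the other dACC libraries, and both libraries of A4 held far more miR-409-5p than those of A1 to A3. Values without an animal are given for some of the results that rest on these animals.

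Within animals, 121 of the listed miRNAs (33.4%) differed between the regions, 97 higher in the dACC (26.8%) and 24 higher in the PCC (6.63%). The test was limma on log2(RPM + 1), blocked by animal, with p-values adjusted after Benjamini and Hochberg over all listed miRNAs and a threshold of 0.05, and fold changes on this scale understate the change of low miRNAs. The differences were moderate in size. Only 17 of the 121 reached 2-fold, 8 toward the dACC and 9 toward the PCC. For 81 miRNAs (22.4%) the 4 RPM values of the regions did not overlap, 74 with the dACC higher and 7 with the PCC higher, and 68 of the 81 were among the 121. The preponderance of miRNAs higher in the dACC depended on the scale. The median difference of all miRNAs was 0.15 on the log2 scale toward the dACC, and it was 0.10 in A1, 0.08 in A2, 0.22 in A3 and 0.36 in A4. With median of ratios scaling the median became −0.05 and the split 42 higher in the dACC (11.6%) and 33 higher in the PCC (9.12%). It was 33 and 24 after quantile normalization, 56 and 36 with edgeR, and 43 and 44 with DESeq2 on the recovered reads. Small differences therefore have no fixed direction (miR-9-5p went from 0.19 in RPM to −0.00 under median of ratios), and of the 121 miRNAs 45 passed the threshold in the same direction under all 4 of these scalings, 28 higher in the dACC and 17 in the PCC. With 4 pairs an exact test of a single miRNA cannot go below p = 0.125, two-sided. The adjusted p-values rest on the spread that limma shares over miRNAs. The count of 121 was 69 without A4 and 51 without the animal as a block.

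**Figure D1:**
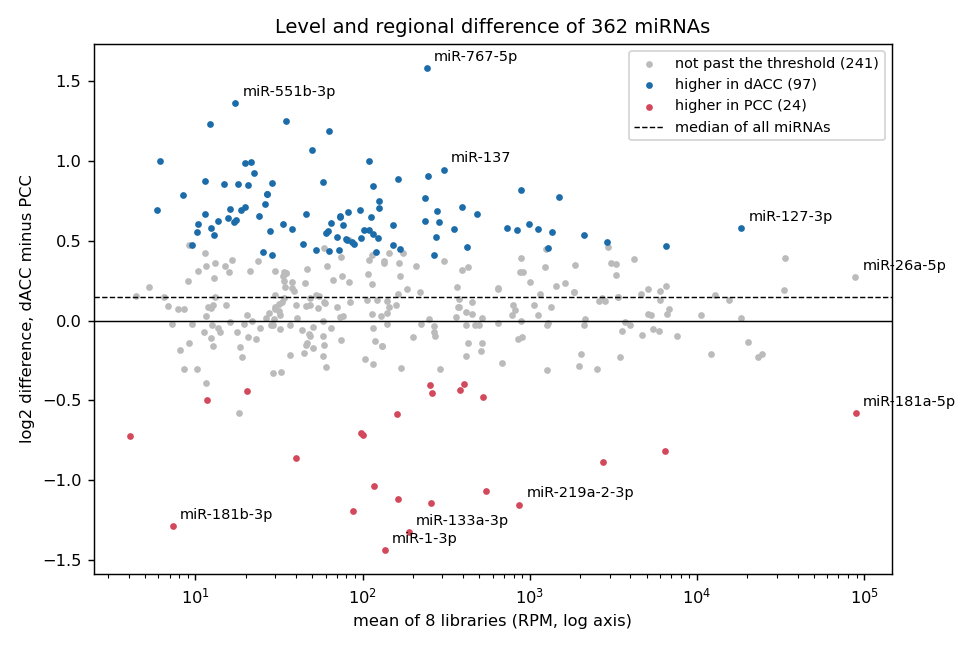
Each point is a miRNA, with its mean over the 8 libraries (RPM, log axis) against the log2 difference, dACC minus PCC. The 97 miRNAs higher in the dACC and the 24 higher in the PCC are spread over the whole range of levels, and the dashed line marks the median of all miRNAs at 0.15.

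The largest difference toward the dACC was that of miR-767-5p, which with miR-105-5p is made from introns of GABRA3, the gene of a GABA-A receptor subunit on the human X chromosome. miR-767-5p is known to act on the TET enzymes, which oxidize methylated cytosine. It stood at 339, 342, 360 and 401 RPM in the dACC of A1, A2, A3 and A4, and at 120, 146, 144 and 80.7 RPM in the PCC of the same animals. The groups did not overlap, and the lowest dACC value was more than 2-fold above the highest PCC value. The log2 difference was 1.58 (SE 0.18, 3.00-fold, limma adjusted p = 6.6e-05, with 4 of 4 animals in this direction). miR-105-5p, from the same transcript, stood at 68.4, 70.8, 64.1 and 64.6 RPM in the dACC and at 34.0, 39.5, 38.8 and 18.6 RPM in the PCC. The dACC values lay close together while A4 was low in the PCC, and the difference was 1.07 (SE 0.18, adjusted p = 0.0010). Both members of this locus were thus higher in the dACC in every animal, under each of the 4 other scalings and with any animal left out.

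miR-551b-3p, at a lower level, showed the same clear separation. It stood at 26.4, 29.0, 23.3 and 22.2 RPM in the dACC and at 10.7, 7.53, 10.8 and 8.0 RPM in the PCC of A1 to A4, a log2 difference of 1.36 (SE 0.16, 2.57-fold, adjusted p = 6.6e-05). miR-1251-5p, which lies in the neuronal long RNA RMST in human, stood at 15.0, 13.7, 27.3 and 12.4 RPM in the dACC against 8.35, 3.77, 13.1 and 3.65 RPM in the PCC. A3 was high in both regions, so the groups overlapped, but the dACC was higher within each animal and the difference was 1.23 (SE 0.17, adjusted p = 0.00025). miR-676-3p was higher in the dACC by 0.99 (SE 0.16, adjusted p = 0.0010), at 23.0 to 29.5 RPM against 8.52 to 18.9 RPM. miR-1298-5p, from an intron of the serotonin receptor gene HTR2C, stood at 27.6, 28.2, 29.2 and 31.8 RPM in the dACC and at 11.3, 16.9, 23.9 and 10.6 RPM in the PCC. The dACC values were nearly equal, and the PCC of A3 came closest to them. The difference was 0.92 (SE 0.19, adjusted p = 0.0031), and the other arm of the same hairpin, miR-1298-3p, differed by 0.86 (SE 0.18, adjusted p = 0.0033).

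The imprinted cluster at human 14q32, expressed from the maternal chromosome and abundant in neurons, was the group with the most miRNAs higher in the dACC. Of its 54 measured members 40 were higher in the dACC (74.1%), 0 were higher in the PCC and 14 did not pass the threshold. The median difference of the 54 was 0.57, against 0.15 over all miRNAs and 0.09 over the 308 outside the cluster, of which 57 (18.5%) were higher in the dACC. The members are made from shared primary transcripts and are not independent of each other. Summed over the cluster, the dACC held 36619 to 49368 RPM and the PCC 27907 to 30999 RPM, so the sums did not overlap, and the median difference was 0.54, 0.29, 0.62 and 0.88 in A1, A2, A3 and A4. Under median of ratios 22 members were higher in the dACC, under quantile normalization 17, with edgeR 27 and with DESeq2 20, and with all of these 0 were higher in the PCC. Without A4 the number in RPM was 25, and without A2 it was 47. Under median of ratios the 22 became 4 without A1, 20 without A2, 3 without A3 and 12 without A4.

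The most abundant member, miR-127-3p, which is made antisense to the imprinted gene RTL1, stood at 21082, 19432, 19437 and 28405 RPM in the dACC and at 15119, 14365, 13478 and 15579 RPM in the PCC. A4 was the highest of each region, and the lowest dACC value lay above every PCC value. The difference was 0.58 (SE 0.14, adjusted p = 0.0091). Of the next most abundant members, miR-381-3p was higher by 0.56 (SE 0.16, adjusted p = 0.014), whereas miR-411-5p with 0.20 (adjusted p = 0.37) and miR-410-3p with 0.35 (adjusted p = 0.095) did not pass. miR-381-3p passed under 2 of the 4 other scalings and in 1 of the 4 fits with an animal left out. The cluster was thus not even in size: its members ran from −0.02 for miR-379-3p to 1.25 for miR-770-5p.

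miR-770-5p lies in MEG3, the long RNA at the start of the maternal transcripts. It stood at 49.3, 36.2, 57.9 and 53.7 RPM in the dACC and at 16.4, 21.1, 25.7 and 17.2 RPM in the PCC. The lowest dACC value came from A2, and the groups did not overlap (log2 difference 1.25, SE 0.17, adjusted p = 0.00023). miR-485-3p stood at 188, 128, 133 and 136 RPM against 81.1, 61.0, 78.5 and 68.0 RPM, with A1 the highest in both regions and a difference of 1.00 (SE 0.14, adjusted p = 0.00036). miR-134-5p, which in rodent neurons is made in response to activity and limits dendritic spine size through LIMK1, was higher by 0.70 (SE 0.14, adjusted p = 0.0031). miR-412-5p differed by 1.00 (SE 0.16, adjusted p = 0.0010), at 23.8 to 38.5 RPM against 11.3 to 16.9 RPM. The low miR-323b-3p, at 5.23 to 11.0 RPM against 2.68 to 4.51 RPM, differed by 1.00 as well (SE 0.20, adjusted p = 0.0025), but A2 gave only 0.17, and it passed under 2 of the 4 other scalings.

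miR-409-5p showed how far animals can differ while the regional difference is kept. It stood at 7.92, 8.45, 8.38 and 331 RPM in the dACC of A1, A2, A3 and A4 and at 5.07, 2.64, 2.26 and 135 RPM in the PCC. A4 was far above the other animals in both regions, yet the dACC was higher in each animal, by 0.56, 1.38, 1.52 and 1.29 on the log2 scale (mean 1.19, SE 0.17, adjusted p = 0.00036). The opposite arm, miR-409-3p, stood at 956 to 1542 RPM in the dACC and 544 to 762 RPM in the PCC and was higher by 0.82 (SE 0.18, adjusted p = 0.0045). Without A4 the difference of miR-409-5p was 1.15 (limma adjusted p = 0.0056). What sets A4 apart in the 5p arm was not tested.

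**Figure D2:**
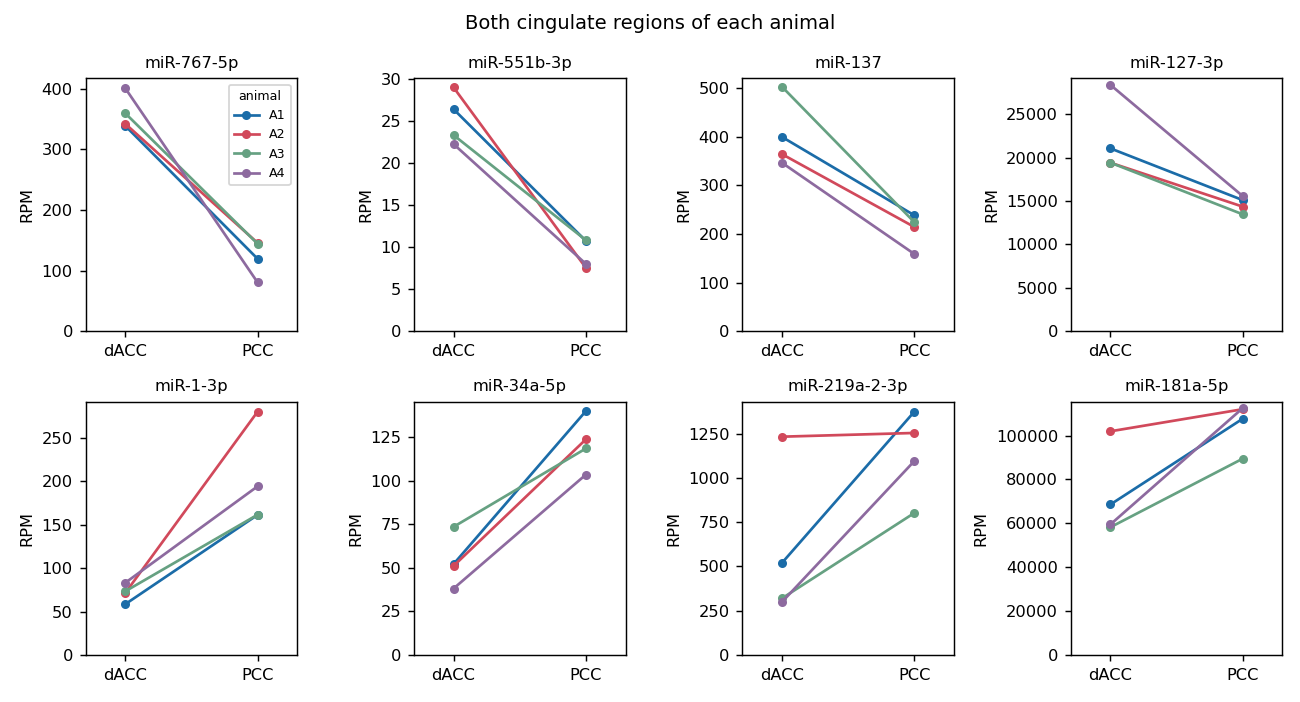
RPM of 8 miRNAs in the dACC and PCC of A1 to A4, with a line for each animal and axes from 0. All 4 lines fall from dACC to PCC for miR-767-5p, miR-551b-3p, miR-137 and miR-127-3p and rise for miR-1-3p and miR-34a-5p, while the line of A2 is nearly flat for miR-219a-2-3p.

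Of the 15 neuronal miRNAs on the list 4 were higher in the dACC, beside 26.8% of all listed miRNAs, 1 was higher in the PCC, beside 6.63%, and 10 did not pass (3 higher and 0 lower after quantile normalization, 3 and 1 under each of the other scalings). The median of the list was 0.32, against 0.15 over all miRNAs, and 10 of the 15 were higher in the dACC in 4 of 4 animals, as were 129 of all listed miRNAs. The general markers of neurons gave 0.19 for miR-9-5p (adjusted p = 0.34), 0.13 for miR-128-3p (0.65) and 0.04 for miR-124-3p (0.89). miR-137, which lies at a locus associated with schizophrenia in human and acts on synaptic genes, stood at 399, 364, 502 and 346 RPM in the dACC and at 238, 214, 224 and 159 RPM in the PCC. The groups did not overlap, and the difference was 0.95 (SE 0.15, 1.93-fold, adjusted p = 0.00070). The other members higher in the dACC were miR-218-5p by 0.77 (SE 0.14, adjusted p = 0.0018), miR-129-2-3p by 0.71 (SE 0.14, adjusted p = 0.0024) and miR-138-5p by 0.54 (SE 0.16, adjusted p = 0.021), the last of these not under any of the 4 other scalings. miR-383-5p was the member higher in the PCC, with a difference of −0.44 (adjusted p = 0.038). It did not pass without A1, A3 or A4, without the animal as a block, with the spread of 5 cortical regions or after quantile normalization. miR-132-3p, miR-132-5p and miR-212-3p, which neurons make on CREB activation, gave 0.18, 0.20 and 0.36 and did not pass (adjusted p = 0.39, 0.43 and 0.11).

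The hairpins of miR-129 moved apart. The miR-129 family is made from 2 genes that share the 5p arm, while the 3p arms differ in sequence and can be told apart. miR-129-1-3p was higher in the PCC, at 137, 85.1, 146 and 114 RPM against 70.4, 64.8, 104 and 56.9 RPM in the dACC (log2 difference −0.70, SE 0.16, adjusted p = 0.0046). miR-129-2-3p went the other way, at 508, 399, 612 and 436 RPM in the dACC and 335, 231, 363 and 265 RPM in the PCC. Each held in 4 of 4 animals, under all 4 other scalings and with any animal left out. The shared arm, miR-129-5p, stood between them at 0.10 (SE 0.14, adjusted p = 0.69). miR-129-1-3p did not pass without the animal as a block or with the spread of 5 cortical regions (limma adjusted p = 0.074 for both). With median of ratios scaling it did not pass without A1 (adjusted p = 0.085). The contrast of the arms was noticed in these values.

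Among the miRNAs higher in the PCC, miR-1-3p and miR-133a-3p shared the smallest adjusted p with miR-181b-3p. They are made together from the same transcripts and are best known from heart and skeletal muscle. miR-1-3p stood at 58.4, 71.3, 73.2 and 83.0 RPM in the dACC and at 161, 280, 162 and 194 RPM in the PCC of A1 to A4. miR-133a-3p stood at 116, 116, 126 and 71.4 RPM in the dACC and at 268, 318, 292 and 197 RPM in the PCC. No dACC value reached the lowest PCC value for either miRNA, and the difference of miR-1-3p was largest in A2. The log2 differences were −1.44 (SE 0.16, 2.71-fold higher in the PCC) and −1.33 (SE 0.14, 2.51-fold), both with adjusted p = 6.6e-05. Of the other muscle miRNAs, miR-208b-3p was higher in the dACC by 0.69 (SE 0.18, adjusted p = 0.012, but not under any of the 4 other scalings). miR-499a-5p gave −0.33 and did not pass (adjusted p = 0.19). The 4 measured members of the muscle list were therefore 1 higher in the dACC, beside 26.8% of all listed miRNAs, 2 higher in the PCC, beside 6.63%, and 1 not passing. miR-208b-3p thus went against miR-1-3p and miR-133a-3p. The values of miR-499a-5p had their sign but were smaller. They were −0.62 to −0.52 under the 4 other scalings, of which it passed 0. With an animal left out they were −0.56 to −0.19, and it passed in 1 of the 4 fits.

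miR-34a-5p, a transcriptional target of p53, was also separated without overlap. It stood at 52.2, 51.1, 73.6 and 38.2 RPM in the dACC and at 140, 124, 119 and 104 RPM in the PCC, a difference of −1.19 (SE 0.16, 2.28-fold, adjusted p = 0.00024). miR-375, known from pancreatic islets and pituitary, stood at 27.9, 27.0, 37.5 and 18.4 RPM in the dACC and at 40.0, 60.2, 74.4 and 33.9 RPM in the PCC. It was higher in the PCC within each animal although the groups overlapped (−0.86, SE 0.15, adjusted p = 0.0014). miR-7-5p, its companion on the neuroendocrine list, was higher in the dACC by 0.58 (adjusted p = 0.042), resting on A4 with 1388 RPM against 618 RPM. It did not pass under any of the 4 other scalings. With an animal left out it passed in 2 of the 4 fits, and not without A4. miR-10b-5p, from the HOXD cluster, was at 82.4 to 351 RPM in the PCC and 26.2 to 136 RPM in the dACC, but A1 went the other way and it differed by −1.04 (SE 0.27, adjusted p = 0.010), passing under 2 of the 4 other scalings.

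The oligodendrocyte miRNAs, miR-219a and miR-338, which drive the maturation of myelin-forming cells, were higher in the PCC with all 4 measured members, beside 6.63% of all listed miRNAs, and A2 did not share the difference. miR-219a-2-3p stood at 520, 1234, 320 and 300 RPM in the dACC of A1, A2, A3 and A4 and at 1375, 1254, 802 and 1096 RPM in the PCC. A1, A3 and A4 were lower in the dACC by 1.32 to 1.87 on the log2 scale, while the libraries of A2 were alike (−0.02). The mean difference was −1.15 (SE 0.23, adjusted p = 0.0029). miR-338-3p stood at 2045, 3418, 1465 and 1150 RPM against 4183, 3510, 2952 and 3164 RPM, with A2 again level, and differed by −0.88 (SE 0.20, adjusted p = 0.0047). miR-219a-5p gave −1.07 (adjusted p = 0.0054) and miR-338-5p −0.59 (adjusted p = 0.025). The median over the list was −0.98, and it was −1.23, −0.01, −1.12 and −1.66 in A1 to A4. Summed over the list, the dACC held 1730 to 5624 RPM and the PCC 4470 to 6701 RPM. Of the 4 members 3 passed after quantile normalization and 4 under each of the other scalings. Without A1 3 passed, without A4 2, and 0 did without the animal as a block or with the spread taken from 5 cortical regions. With median of ratios scaling 4 passed without A2, and 0 without A1, A3 or A4.

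Other miRNAs higher in the PCC had the same profile over animals. miR-584-5p stood at 147, 329, 83.4 and 125 RPM in the dACC and at 370, 337, 220 and 446 RPM in the PCC, level in A2 and lower in the dACC of the other animals (−1.14, SE 0.23, adjusted p = 0.0029). miR-577, chosen after its values were seen, stood at 105, 191, 87.1 and 52.6 RPM against 283, 180, 208 and 198 RPM (−1.12, SE 0.24, adjusted p = 0.0045). miR-211-5p, which shares its seed with miR-204 and lies in the TRPM1 gene, differed by −0.84 in A3 and by −0.06 in A2 (mean −0.72, SE 0.18, adjusted p = 0.0091). Without A2 miR-584-5p gave −1.51 and miR-211-5p −0.93. Neither passed without the animal as a block. miR-584-5p also failed with the spread of 5 cortical regions, and miR-211-5p without A4. With median of ratios scaling both passed without A2, and neither without A1, A3 or A4. miR-577 passed in 3 of the 4 fits with an animal left out. Of the 24 miRNAs higher in the PCC, 11 differed by less than 0.2 in A2, against 0 in A1, 1 in A3 and 0 in A4. Of the 97 higher in the dACC it was 18 in A2, 8 in A1, 3 in A3 and 1 in A4. The oligodendrocyte miRNAs are markers of myelin-forming cells, and their part in the regional difference was not tested. In A2, miR-767-5p, miR-551b-3p, miR-1-3p, miR-133a-3p, miR-181b-3p and miR-34a-5p differed by 1.23, 1.81, −1.96, −1.45, −1.28 and −1.26. They were picked from the largest differences with their values in view, and their relation to the oligodendrocyte miRNAs was not tested.

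The miR-181 family, which is abundant in forebrain neurons and lymphocytes, divided by its genes. miR-181a-5p stood at 68577, 101940, 58212 and 59489 RPM in the dACC and at 107680, 112010, 89473 and 112520 RPM in the PCC. A2 was again the highest dACC library, and the difference was −0.58 (SE 0.16, adjusted p = 0.013). It passed under 3 of the 4 other scalings and in 2 of the 4 fits with an animal left out. miR-181b-5p, from the same transcripts, stood at 4574, 8276, 3381 and 3241 RPM against 8958, 9439, 6648 and 7172 RPM (−0.82, SE 0.17, adjusted p = 0.0033). miR-181c-5p and miR-181d-5p, from another gene, gave 0.03 and 0.02 (adjusted p = 0.92 and 0.94). The 2 of 4 members higher in the PCC stand beside 6.63% of all listed miRNAs. Without the animal as a block or with the spread of 5 cortical regions, 0 of the 4 passed. With median of ratios scaling 2 passed without A2, and 0 without A1, A3 or A4. The mean of miR-181a-5p was 72054 RPM in the dACC and 105420 RPM in the PCC, and that of miR-26a-5p, the next most abundant miRNA, 96661 and 80547 RPM (0.27, adjusted p = 0.19). These abundant miRNAs weigh in the total that RPM is scaled to. The low arm miR-181b-3p was separated without overlap, at 2.93, 4.83, 4.01 and 3.53 RPM against 10.1, 13.2, 9.47 and 10.3 RPM, including A2 (−1.29, SE 0.14, adjusted p = 6.6e-05). A further low arm, miR-24-1-5p, stood at 1.77 to 3.28 RPM in the dACC and 3.83 to 7.53 RPM in the PCC (−0.72, SE 0.15, adjusted p = 0.0033). Resting on few reads, it passed under 3 of the 4 other scalings, but not with a pseudocount of 10 RPM or without the animal as a block.

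Markers of blood and vessels gave no common direction. The red cell miRNAs miR-451a, miR-144-3p and miR-144-5p were higher in the dACC (0.63, 0.61 and 0.70, adjusted p = 0.014, 0.023 and 0.0091), while miR-486-5p gave 0.30 (adjusted p = 0.29). Summed, the list held 959 to 1677 RPM in the dACC and 853 to 1250 RPM in the PCC, which overlap. The 3 of 4 members stand beside 26.8% of all listed miRNAs. Under the other scalings 0 or 1 of the 4 passed, and 0 did without A4 or without the animal as a block. The 5 vascular miRNAs include miR-126 of endothelium and miR-143 and miR-145 of smooth muscle. They had 0 members past the threshold, beside 33.4% of all listed miRNAs, and a median of −0.04. The PCC of A3 stood out with 45898 RPM of miR-143-3p. Under 2 of the 4 other scalings, edgeR and DESeq2, miR-126-5p passed toward the PCC. Of 8 leukocyte and microglia miRNAs, miR-142-5p was higher in the dACC (0.41, adjusted p = 0.047), beside 26.8% of all listed miRNAs, and 7 did not pass. It passed under 0 of the 4 other scalings and in 1 of the 4 fits with an animal left out. Toward the PCC, miR-146b-5p passed under 2 of the 4 other scalings and miR-21-5p under 1. None of these markers was at 0 in any library. Their part in the regional differences was not tested.

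The choroid plexus and ependyma list had 2 of 5 members higher in the dACC, both arms of miR-1298, beside 26.8% of all listed miRNAs, and miR-211-5p higher in the PCC. miR-204-5p, the most abundant of them, gave 0.45 (adjusted p = 0.055) and miR-34c-5p of ciliated cells 0.08 (adjusted p = 0.78). Of miR-221 and miR-222, miR-221-3p and miR-221-5p were higher in the dACC by 0.50 and 0.49 (adjusted p = 0.017 and 0.030), and miR-222-3p gave 0.46 (adjusted p = 0.075). These 2 of 3 stand beside 26.8% of all listed miRNAs. Under the 4 other scalings miR-221-3p passed with 2 and miR-221-5p with 0, and with an animal left out they passed in 2 and 1 of 4 fits. Broadly expressed families had medians near that of all miRNAs or nearer 0. Of the 9 let-7 guide strands, the 6 members of the miR-29 family, the 5 of the miR-30 family and the 14 of the miR-99/100, let-7 and miR-125 clusters, 0 passed the threshold, with medians of 0.02, 0.01, −0.03 and 0.15. Over all listed miRNAs 33.4% passed. Of the 13 members of the miR-17 family, miR-92b-3p alone was higher in the dACC (0.47, adjusted p = 0.039), beside 26.8% of all listed miRNAs, and the median was −0.00. It passed under 0 of the 4 other scalings and in 1 of the 4 fits that left out an animal. Under the other scalings let-7a-5p, miR-92a-3p, miR-25-3p and miR-30a-5p were higher in the PCC with 3 of the 4.

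**Figure D3:**
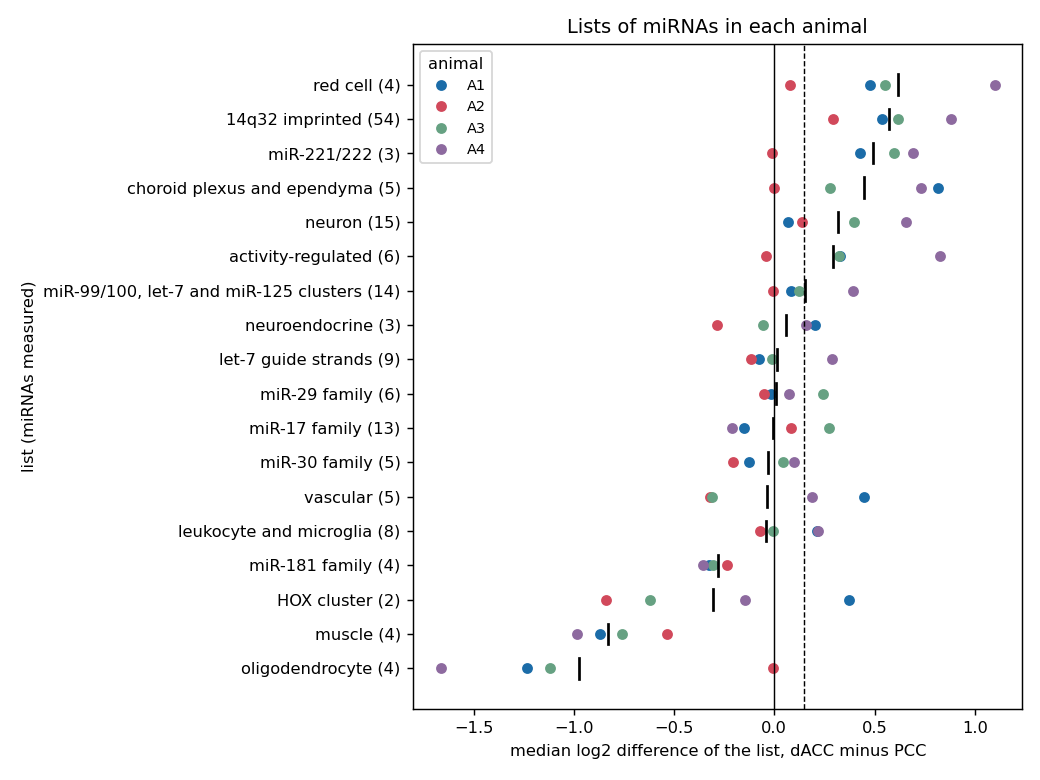
Median log2 difference, dACC minus PCC, of each list of miRNAs in A1 to A4 (points) with the median of the fitted differences (black bars) and the median of all miRNAs (dashed line, 0.15). The 14q32 list lies to the right and the muscle list to the left in each animal, whereas the oligodendrocyte list is near 0 in A2 and at −1.12 or below in the others.

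The same animals gave 3 further cortical regions: the dorsomedial prefrontal cortex (dmPFC) and the lateral and medial orbitofrontal cortex (lOFC and mOFC). Since the miRNAs were chosen for a difference between dACC and PCC, where these 2 regions lie among the 5 is a description. The 12 largest differences in each direction were taken among miRNAs past the threshold with the same direction in 4 of 4 animals, which leaves out miR-577, miR-219a-5p and miR-10b-5p. For the 12 toward the dACC, the PCC had the lowest mean of the 5 regions for 12, and the highest mean was in the dACC for 6 and in the mOFC for 6. In each of the latter 6 the library of A3 was the highest of the mOFC and raised its mean. It held 91.2 RPM of miR-1298-5p, against 16.4 to 26.4 RPM in the mOFC of the other animals, and 91.2 RPM of miR-412-5p, against 13.0 to 37.4 RPM. For the 12 toward the PCC, the PCC was highest for 10 and the dACC lowest for 9, the mOFC being lowest for the other 3, miR-1-3p, miR-133a-3p and miR-34a-5p.

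miR-767-5p ran from 360 ± 28.5 RPM in the dACC over 252 ± 61.2 in the mOFC, 196 ± 35.4 in the lOFC and 162 ± 24.4 in the dmPFC to 123 ± 30.4 RPM in the PCC (SD, n = 4 each). The dACC (339 to 401 RPM) touched only the highest mOFC library (341 RPM), and the ranges of the lOFC and dmPFC overlapped. miR-551b-3p was nearly the same in the frontal regions, at 19.7 to 27.9 RPM on average, and 9.27 ± 1.75 RPM in the PCC (SD, n = 4). The highest PCC library lay below the lowest frontal library, so for this miRNA the PCC stood apart rather than the dACC. miR-137 followed the order dACC, mOFC, dmPFC, lOFC and PCC, at 403, 349, 303, 292 and 209 RPM, and the ranges of the 4 frontal regions overlapped.

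miR-133a-3p had the reverse order, from 269 ± 51.8 RPM in the PCC over 191 ± 67.6 in the dmPFC and 142 ± 63.9 in the lOFC to 107 ± 24.4 in the dACC and 95.1 ± 31.0 RPM in the mOFC (SD, n = 4 each). The dACC and mOFC did not differ beyond their spread. miR-34a-5p was 122 ± 15.1 RPM in the PCC, 94.0 ± 41.3 in the dmPFC, 64.4 ± 50.8 in the lOFC, 53.8 ± 14.7 in the dACC and 45.2 ± 6.88 RPM in the mOFC (SD, n = 4 each), the lOFC being spread from 28.7 to 139 RPM. miR-375 was highest in the PCC, at 52.1 RPM on average against 27.7 to 30.2 RPM in the 4 other regions. The ranges of the dACC, dmPFC and mOFC overlapped that of the PCC, and that of the lOFC lay just below it (at most 32.2 against at least 33.9 RPM). miR-219a-2-3p was the least steady of the miRNAs plotted, with 105 to 1666 RPM in the mOFC alone.

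**Figure D4:**
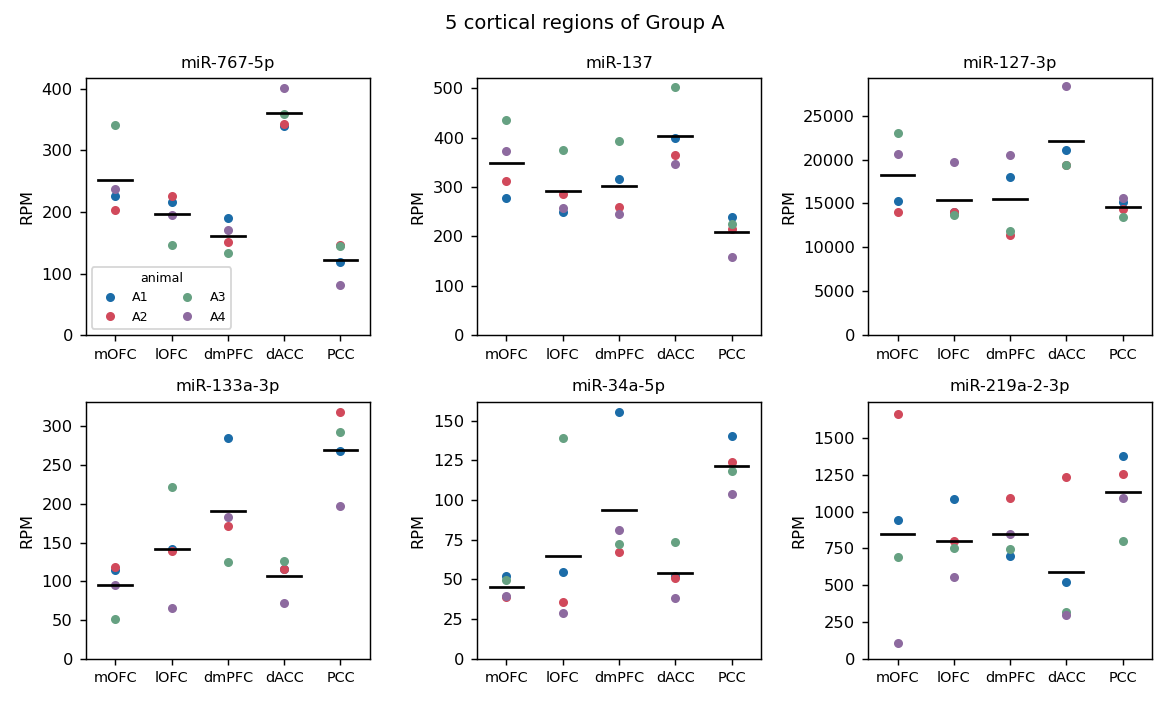
RPM of 6 miRNAs in 5 cortical regions of Group A, with a point for each animal and the mean as a bar, axes from 0. On average miR-767-5p and miR-137 are highest in the dACC and lowest in the PCC, miR-133a-3p and miR-34a-5p are highest in the PCC, and miR-219a-2-3p varies most between animals in the mOFC.

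In Group B the frontal and posterior areas lie on the lateral surface and the animals are others, so that no library is shared. Over all listed miRNAs, dlPFC and PPC differed for 1 (0.276%), and 52 had an unadjusted p under 0.05 (limma, 6 pairs). The median difference was 0.02, with 198 miRNAs higher in the dlPFC and 164 in the PPC. The miRNA past the threshold was miR-551b-3p, at 9.17 to 18.5 RPM (median 12.7) in the dlPFC and 2.52 to 8.03 RPM (median 5.61) in the PPC. It was higher in the dlPFC in 6 of 6 animals, by 1.14 on the log2 scale (SE 0.16, adjusted p = 0.025), beside 1.36 in the cingulate pairs. With a mean of at least 10 RPM required it was not tested. DESeq2 on the recovered reads called 13 miRNAs and edgeR 5.

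All 24 of these miRNAs, 12 in each direction in the cingulate pairs, had the same sign here, 12 with the dlPFC higher and 12 with the PPC higher, and 13 of them had an unadjusted p under 0.05, but the sign rests on very small values for some. miR-767-5p stood at 85.0 to 191 RPM (median 122) in the dlPFC and 42.3 to 78.0 RPM (median 57.1) in the PPC, without overlap (1.08, SE 0.18, adjusted p = 0.053). miR-105-5p gave 1.06 (SE 0.19, adjusted p = 0.053), each higher in 6 of 6 animals. Both thus came close to the threshold without passing it. miR-770-5p gave 0.83 (adjusted p = 0.087), miR-137 0.51 (adjusted p = 0.15) and miR-129-1-3p −0.40 (adjusted p = 0.059). miR-133a-3p stood at 187 to 369 RPM (median 263) in the dlPFC and 323 to 469 RPM (median 413) in the PPC, which is −0.65 (SE 0.19, adjusted p = 0.12). miR-1-3p gave −0.67 (adjusted p = 0.12) and miR-34a-5p −0.88 (SE 0.33, adjusted p = 0.25).

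Other cingulate differences were small there. miR-181b-3p gave −0.00 (SE 0.20, adjusted p = 0.99), against −1.29 between dACC and PCC. The oligodendrocyte list had a median of −0.14, against −0.98, and miR-219a-2-3p gave −0.18 (adjusted p = 0.71). The 54 members of the 14q32 cluster had a median of 0.15, against 0.57, and miR-127-3p gave −0.02 (adjusted p = 0.97). The difference between the 2 comparisons was not tested, and it cannot be told apart from sex, age, euthanasia and the regions themselves, which all changed with the group.

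**Figure D5:**
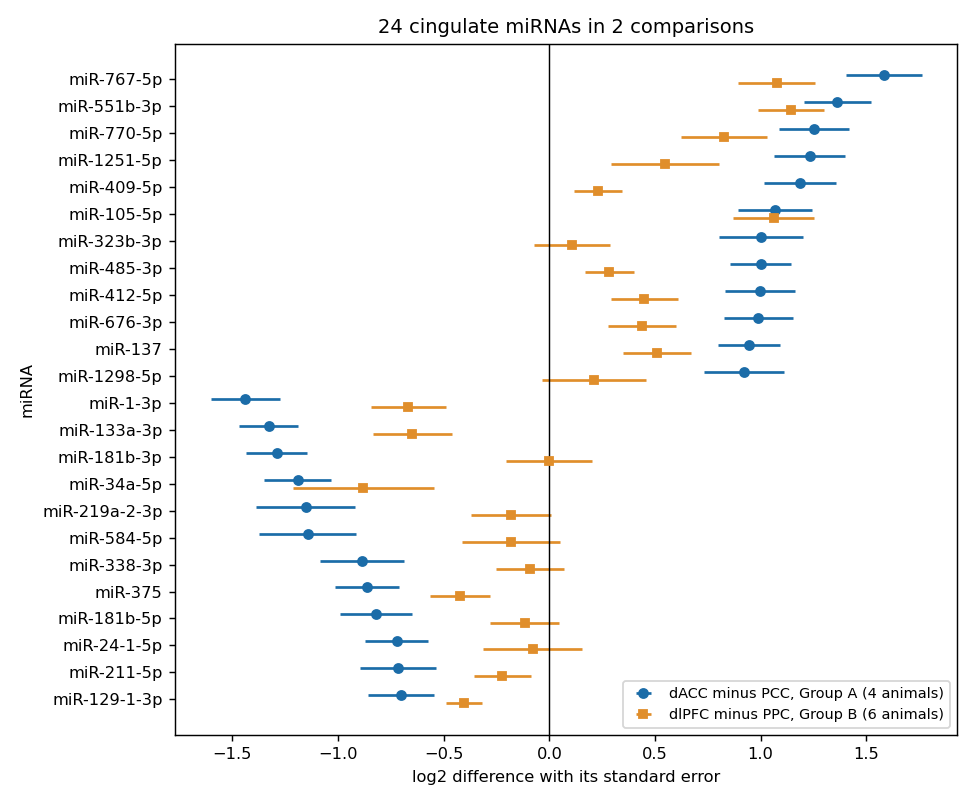
Log2 differences with their standard errors of the 24 miRNAs with the largest cingulate differences among those past the threshold in 4 of 4 animals, for dACC minus PCC in 4 animals (circles) and dlPFC minus PPC in 6 other animals (squares). The squares lie on the same side of 0 as the circles but mostly nearer to it, and miR-551b-3p and miR-105-5p are closest in size.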

How the data were processed

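The authors trimmed small RNA reads, aligned them with Bowtie in miRDeep2 to the human sequences of miRBase v21, allowing 0 mismatches. Libraries with fewer than 500000 mapped reads were dropped, and a miRNA had to reach 10 reads in 80% of brain samples. The versions of miRDeep2 and Bowtie are not given in the sources used here. They deposited RPM values, with the runs of a library combined, and a total read count of each miRNA over all libraries. Reads of baboon variants of a human sequence were thus not counted.

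Library totals were recovered by searching for the total that turns RPM values of at most 200.0 into whole reads (tolerance 0.1 reads). All such values were whole, and the reads of each miRNA summed to 0.999957 to 1.0 times the deposited total count. 0 columns of per-sample values were left unmapped. Tests used limma 3.58.1 on log2(RPM + 1), animals as block, and Benjamini-Hochberg adjustment. Pairs are regions of the same animal by the labels. Same-animal deviations correlated over 229 miRNAs at r = 0.616, 0.437, 0.753 and 0.770 in Group A. The highest r with another animal was 0.404, 0.252, 0.290 and −0.16. In Group B same-animal deviations correlated, over 226, at 0.105 to 0.728. There the dlPFC of B2 and B6 correlated more with the PPC of another animal (0.500 and 0.346) than with their own (0.105 and 0.193). For these animals the pairing rests on the labels alone. Fits were tested on simulated data. There is 1 library for each region and animal.

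Named miRNAs were the 12 largest changes in each direction with adjusted p under 0.05 in 4 of 4 animals, up to 4 most abundant members of each of 18 lists and the 3 most abundant miRNAs; other names (miR-577, miR-409-3p, miR-129-5p, miR-379-3p, miR-218-5p, miR-129-2-3p and miR-383-5p) were picked with their values in view. The comparison, lists and rules were chosen with earlier results of these data known. Alternatives were no animal block, pseudocounts of 0.1 and 10 RPM, leaving out miRNAs with a mean below 10 RPM, scaling by median of ratios or quantiles, edgeR 4.0.16 (TMM, quasi-likelihood), DESeq2 1.42.0, a trend in limma, the spread of 5 cortical regions, and each animal left out.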

Additional observations from a re-analysis of the deposited data

Results flagged for a closer look

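Values that lay far from the other 3 animals of a region, or differences far from those of the other 3 animals, were found in 19 of 255 groups of 4 among the named miRNAs (Dixon's test at 95%). Chance gives about 1 in 20. Of the 19, 10 came from A4, 4 each from A2 and A3, and 1 from A1.

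In A4 these were miR-409-5p, at 330.6 RPM in the dACC and 134.7 RPM in the PCC against at most 8.45 and 5.07 RPM in the others, miR-125a-5p at 13540 and 10420 RPM against at most 5196 and 5316 RPM, and miR-125b-5p at 12310 RPM in the dACC against at most 5612 RPM. miR-7-5p stood at 1388 RPM, miR-92b-3p at 11450 RPM and miR-146a-5p at 350.8 RPM in the dACC of A4, each above the others, and miR-142-5p at 163.6 RPM and miR-29a-3p at 2621 RPM in its PCC, below the others.

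In A3 the PCC held 45900 RPM of miR-143-3p against at most 20730 RPM, 350.9 RPM of miR-10b-5p against at most 107.9 RPM and 2030 RPM of miR-132-3p against at most 1630 RPM, and the dACC held 500.6 RPM of miR-451a against at most 241.2 RPM. In A2 the dACC held 2999 RPM of miR-92a-3p against at most 2070 RPM, and the log2 differences were −0.01245 for miR-221-5p (others 0.59 to 0.69), −0.15 for miR-25-3p (others −0.31 to −0.29) and 0.10 for miR-381-3p (others 0.67 to 0.76). In A1 the dACC held 187.8 RPM of miR-485-3p against at most 136.3 RPM.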

How the results depend on the processing

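Of the 24 miRNAs with the largest differences among those past the threshold in the same direction in 4 of 4 animals, 24 passed the threshold in the same direction by median of ratios or edgeR, 22 by quantile normalization or DESeq2, 18 with the spread of 5 cortical regions and 14 without the animal block. Without A4 it was 23, and without A1, A2 or A3 24. By median of ratios with an animal left out, 12 passed without A1, 23 without A2, 16 without A3 and 17 without A4. No named miRNA past the threshold reversed.

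The count of 121 (97 higher in the dACC, 24 in the PCC) became 51 without the replicate block (47 and 4), 75 by median of ratios (42 and 33), 57 by quantile normalization (33 and 24), 92 with edgeR (56 and 36), 87 with DESeq2 (43 and 44) and 73 with the spread of 5 cortical regions (66 and 7). With an animal left out it ranged from 69 without A4 (55 and 14) to 139 without A2 (114 and 25), and was 97 without A1 (79 and 18) and 81 without A3 (64 and 17). Under median of ratios with an animal left out, added after seeing the data, it ranged from 16 without A1 (8 and 8) over 18 without A3 (10 and 8) and 41 without A4 (27 and 14) to 71 without A2 (37 and 34). Why the counts moved was not tested, except that fewer animals were fitted in the last 2 series.

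Between dlPFC and PPC the count of 1 became 3 without the replicate block, 4 with a pseudocount of 10 RPM or after quantile normalization, 5 by median of ratios or edgeR, 7 with a trend in limma, 13 with DESeq2, and 0 of 330 with a mean of at least 10 RPM (49 at an unadjusted p under 0.05). The rank correlations moved by less than their spread under both alternatives. With fewer than 10 RPM, a miRNA rests on few reads.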
